A study of Homo sapiens with 12 samples.

Results

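Type I interferon-stimulated genes were examined as a set of 35 named genes in Caco-2 cells that carried 1 of 3 forms of the receptor TLR4 or none. A gene entered the set when its symbol was on that list and was the single symbol of a probe set in the array annotation. All 35 genes were found, out of 18417 genes measured, and each had exactly 1 such probe set. Caco-2, a line from a human colon carcinoma, is used as a stand-in for intestinal epithelium, and RNA was measured on 12 Affymetrix whole-transcript arrays, 3 for each of 4 groups. The lines called TLR4-WT, TLR4-D299G and TLR4-T399I were stably transfected with a plasmid for HA-tagged TLR4, either wild type or with the D299G or T399I change, and were selected with blasticidin. The control cells were untransfected and received no DNA, so no group carried an empty vector or had been through selection without TLR4. RNA was taken after 8 days of culture in every group, and no stimulus is named. The design text speaks of clones but does not say how many clones or cultures stood behind the 3 RNA samples of a group. The p-values thus measure only how far these samples spread, and that spread may be technical.

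Interferon alpha and beta bind a receptor made of IFNAR1 and IFNAR2, and the kinases JAK1 and TYK2 at the receptor pass the signal on. The factor ISGF3, which includes IRF9, then binds the interferon-stimulated response element (ISRE) in the promoters of many antiviral genes. TLR4, the receptor for bacterial lipopolysaccharide, can itself induce interferon beta through the adaptor TRIF (TICAM1) and the factor IRF3. Epithelial cells keep part of this gene set on at rest, and the products block translation of viral RNA, degrade RNA, hold virions at the membrane or sense nucleic acids.

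The values are log2 expression values, and a difference of 1 is a 2-fold change. TLR4 itself lay at 4.83 ± 0.27 (SD, n = 3) in untransfected cells, 8.61 ± 0.11 in the WT line, 8.81 ± 0.08 in the D299G line and 8.34 ± 0.05 in the T399I line. The plasmid's own RNA may be part of that signal, and the annotation does not say which part of TLR4 the probes cover. Arrays of 1 group correlated at 0.9902 to 0.9959 over all probe sets and arrays of different groups at 0.9769 to 0.9925. All 8 intestinal epithelial markers were above every array's lower quartile. EPCAM ran from 12.69 to 12.94, but the other 7 differed among the groups by the F test, with CDH17 at 12.33 in untransfected cells and 11.45 in D299G, CDX2 at 9.99 and 9.14, and KRT18 at 12.84 and 13.49. Of 13 leukocyte markers 12 were measured. PTPRC, which all leukocytes carry, was below the lower quartile of all 12 arrays (3.44 to 4.07), as was MS4A1, while CD79A, ITGAM, CSF1R, NKG7, TYROBP and FCER1G were above it on all 12. Of 8 fibroblast markers 3 differed among the groups, as did 2 of 4 endothelial markers.

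Promoters were read from RefSeq windows (GRCh38.p14) that run from 250 bases before to 50 after a gene's start, and 28 of the 35 genes had a window. IFIT2, IRF7, MX2, OAS2, OASL, TRIM22 and USP18 were not in the table. The ISRE core searched was GAAA, then any 2 bases, then GAAA, on both strands, and 20 of the 28 genes (71.4%) held it, against 4.38% of 27305 genes (3.57% of 35116 windows). A GAS core, a further type of interferon-responsive site, was searched as TTCNNNGAA on both strands, and 10 of 28 genes (35.7%) held it, against 9.38% of all genes (7.66% of windows). The 2 motifs were counted separately, overlaps between them were allowed, and a match describes the letters only. The windows below are shown because they belong to the genes that differed most, and to ISG15, which passed no test. Only the 250 bases before the start are printed, 5′ to 3′ on the gene's own strand, with each ISRE core in capitals. IFIT1 (chr10:89392373-89392622, plus strand), EPSTI1 (chr13:42992242-42992491, minus strand) and PARP9 (chr3:122564301-122564550, minus strand) were lower in all 3 TLR4 lines. BST2 (chr19:17405631-17405880, minus strand) and HERC5 (chr4:88456869-88457118, plus strand) were higher in all 3. IFI6 (chr1:27672193-27672442, minus strand) was lower in WT and T399I, and ISG15 (chr1:1013247-1013496, plus strand) was called in no comparison.
IFIT1: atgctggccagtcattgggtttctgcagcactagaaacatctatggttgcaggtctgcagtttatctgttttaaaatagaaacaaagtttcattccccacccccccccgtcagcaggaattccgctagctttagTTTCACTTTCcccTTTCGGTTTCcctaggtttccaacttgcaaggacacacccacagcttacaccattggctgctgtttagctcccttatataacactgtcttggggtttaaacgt
EPSTI1: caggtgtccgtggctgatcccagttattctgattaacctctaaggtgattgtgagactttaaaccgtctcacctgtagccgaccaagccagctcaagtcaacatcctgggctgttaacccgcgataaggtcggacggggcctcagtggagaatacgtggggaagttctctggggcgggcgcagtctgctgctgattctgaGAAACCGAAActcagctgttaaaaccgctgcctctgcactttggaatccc
PARP9: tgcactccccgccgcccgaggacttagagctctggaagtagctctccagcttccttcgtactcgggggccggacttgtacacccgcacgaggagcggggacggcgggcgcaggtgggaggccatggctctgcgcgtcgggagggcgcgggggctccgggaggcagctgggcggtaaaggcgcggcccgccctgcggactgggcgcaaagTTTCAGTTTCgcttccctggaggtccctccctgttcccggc
BST2: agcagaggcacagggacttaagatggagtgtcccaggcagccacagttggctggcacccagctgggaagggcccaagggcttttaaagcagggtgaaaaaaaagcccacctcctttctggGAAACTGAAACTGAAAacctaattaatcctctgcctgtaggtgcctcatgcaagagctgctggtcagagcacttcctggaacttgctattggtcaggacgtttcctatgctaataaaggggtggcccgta
HERC5: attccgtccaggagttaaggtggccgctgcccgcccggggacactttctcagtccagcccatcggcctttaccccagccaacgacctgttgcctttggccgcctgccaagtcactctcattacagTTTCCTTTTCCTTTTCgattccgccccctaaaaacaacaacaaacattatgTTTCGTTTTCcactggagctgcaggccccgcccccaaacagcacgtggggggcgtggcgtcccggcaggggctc
IFI6: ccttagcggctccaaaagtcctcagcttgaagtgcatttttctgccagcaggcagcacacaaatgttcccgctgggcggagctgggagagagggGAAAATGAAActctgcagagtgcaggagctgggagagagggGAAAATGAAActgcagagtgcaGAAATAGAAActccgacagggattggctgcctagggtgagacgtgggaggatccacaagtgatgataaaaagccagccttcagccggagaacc
ISG15: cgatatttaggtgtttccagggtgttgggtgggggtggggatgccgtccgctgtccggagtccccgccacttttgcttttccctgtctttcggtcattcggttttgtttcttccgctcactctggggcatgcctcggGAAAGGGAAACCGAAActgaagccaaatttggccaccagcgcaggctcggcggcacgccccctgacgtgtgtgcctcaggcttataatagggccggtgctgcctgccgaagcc

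The first core letter lay 116 and 103 bases before the start in IFIT1, 50 in EPSTI1 and 41 in PARP9. A further PARP9 window (chr3:122564785-122565034, minus strand) held no core. A gene was counted as holding a core if any of its windows did. In IFI6 there were 3 cores, at 156, 115 and 93 bases before the start, and in HERC5 3 cores at 125, 119 and 74, of which the first 2 overlap. BST2 held 2 overlapping cores at 130 and 124 bases and ISG15 2 overlapping cores at 113 and 107. Genes called higher, genes called lower and genes called in no comparison thus all included some with the core. It was present in 7 of 7 genes with a window among those lower in all 3 lines and in 2 of 3 among those higher in all 3 (OAS1 lacked it). Among those called in no comparison 5 of 8 held it, and among the remaining genes, called in some comparison, 6 of 10.

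Of the 35 genes, 22 differed among the 4 groups by limma's moderated F test at an adjusted p under 0.05, against 41.9% of all 33297 probe sets. In pairwise tests 24 genes were called in at least 1 of 6 comparisons (51.5% of all probe sets were), and 10 genes changed by 2-fold or more in at least 1 (5.34%). The set did not move as a block. Of its genes, 9 were lower in all 3 TLR4 lines than in untransfected cells (8.33% of all probe sets were). A further 3 were higher in all 3, a count near the share of all probe sets (7.4%). The 9 were IFIT1, IFIT2, IFIT3, IFIT5, IFIH1, EPSTI1, PARP9, PARP14 and TRIM22, and the 3 were BST2, OAS1 and HERC5. The 3 lines share the same untransfected arrays, so these comparisons are not independent of one another. In RNA from whole cultures, fewer cells that express a gene and less RNA per cell cannot be told apart.

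**Figure D1:**
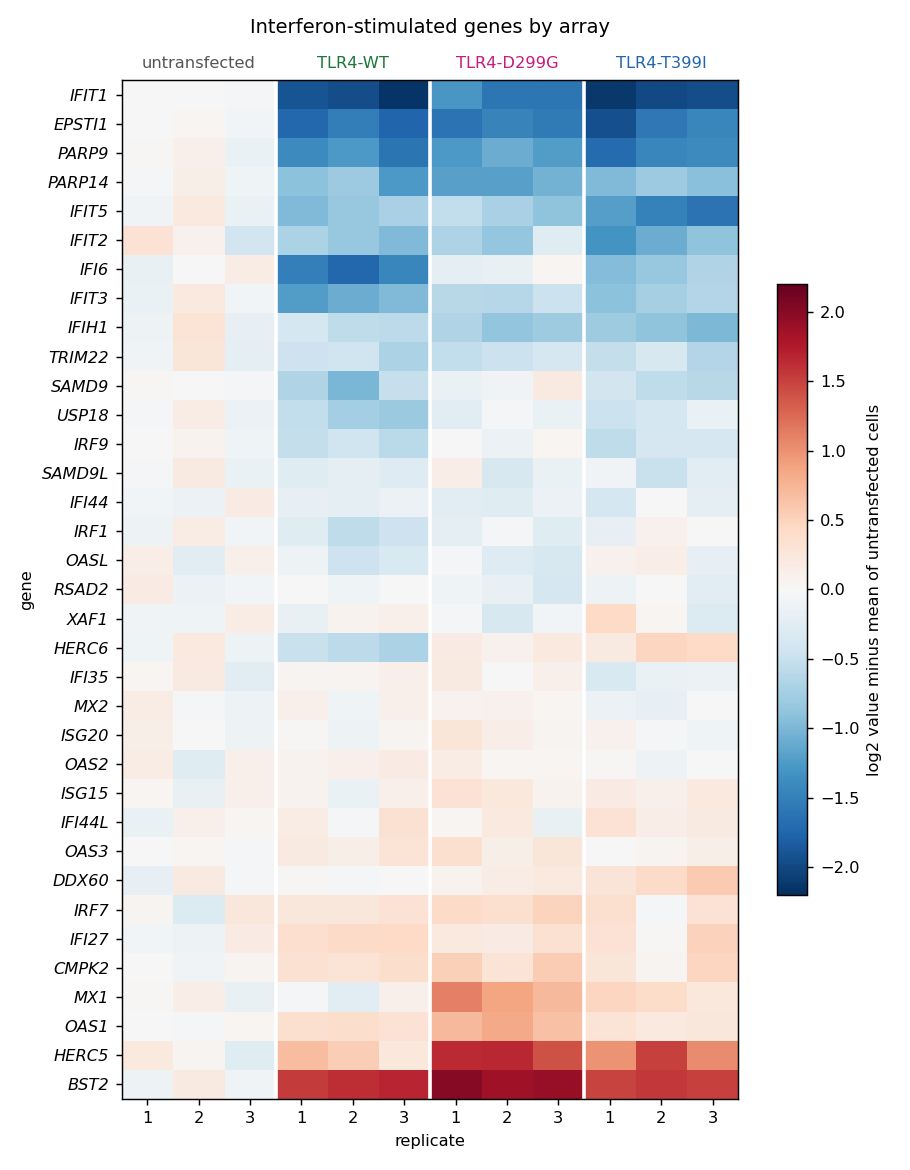
Each row is 1 of the 35 genes and each column 1 of the 12 arrays, and colour is the log2 value minus the gene's mean over the 3 untransfected arrays (red higher, blue lower). IFIT1, EPSTI1, PARP9 and IFIT3 are blue on all 9 arrays of TLR4 lines and BST2 is red on all 9, while IFI6 is blue in TLR4-WT and near the control level in TLR4-D299G.

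Against untransfected cells the WT line had 6 genes higher and 15 lower, where 16.1% of all probe sets were higher and 15.1% lower. The median log2 change was -0.17 over the 35 genes and 0.05 over all probe sets. At 2-fold or more 1 gene was higher (0.432% of all probe sets) and 5 were lower (1.55%), and 22 genes did not overlap between the groups (43.6%). Each of the 15 lower calls held under every alternative that could be run, but the higher calls were less firm. Their number was 3 without any 1 of the WT arrays or without untransfected replicate 1, and 2 without untransfected replicate 2. After centring each array the 35 genes split into 3 higher and 15 lower, and over all probe sets 11.1% higher and 17% lower.

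The D299G line had 7 genes higher and 9 lower than untransfected cells, beside 17.5% and 17.9% of all probe sets, and its median change was -0.03 against 0.03. In that line 2 genes were higher by 2-fold or more (0.817%) and 4 lower (2.21%), and 16 genes did not overlap between the groups (47.3%). The T399I line had 6 genes higher and 13 lower, beside 14.6% and 14.8%, with a median change of -0.11 against 0.03. With only the compared arrays fitted, the 6 higher fell to 2, with MX1, OAS1, DDX60 and HERC6 lost. Here 2 genes were higher by 2-fold or more (0.619%) and 5 lower (1.67%), and 19 did not overlap (37.9%). The shares of genes called higher in the 3 lines, 17.1%, 20% and 17.1%, were near those of all probe sets. The shares called lower were 42.9%, 25.7% and 37.1%. The summed level of the leukocyte markers, taken as log2 of the sum of linear values, was 9.65 to 9.85 in untransfected cells, 9.9 to 10.05 in WT, 10.03 to 10.08 in D299G and 9.87 to 10.01 in T399I. Of those 12 markers 3 differed among the groups (CD3D, ITGAM and FCER1G), and the part of such cells in these results was not tested.

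**Figure D2:**
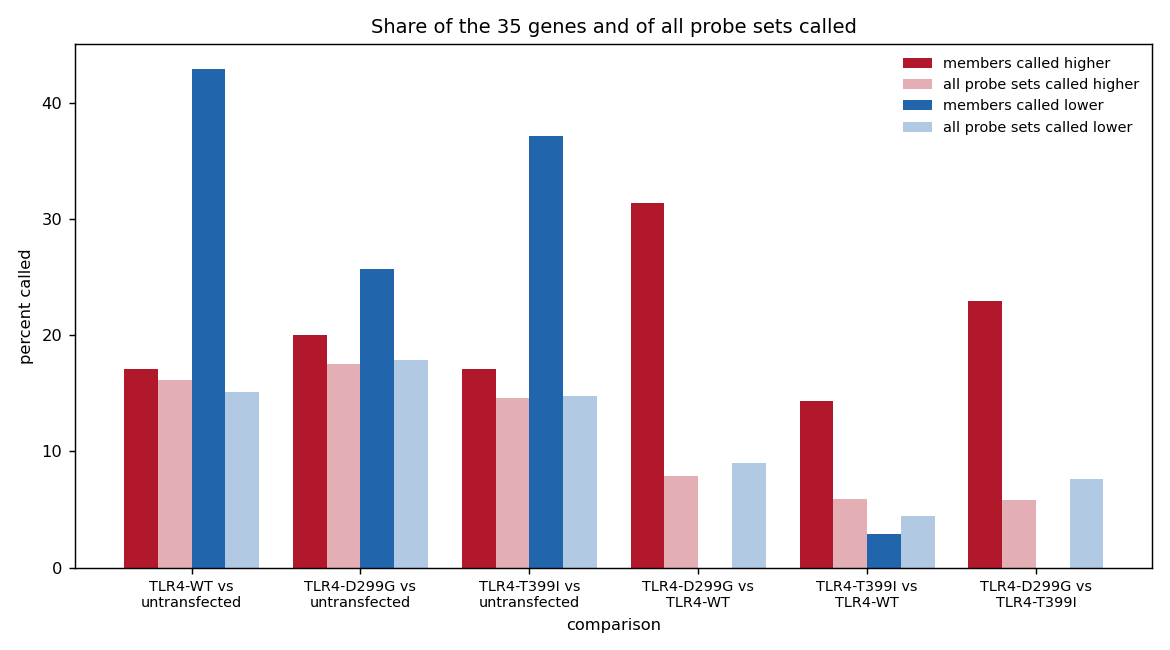
Bars give the percent called higher or lower at an adjusted p under 0.05 in each comparison, for the 35 genes and for all 33297 probe sets. In TLR4-WT against untransfected cells 42.9% of the genes and 15.1% of all probe sets were lower, and in TLR4-D299G against TLR4-WT 31.4% and 7.85% were higher.

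The IFIT genes code for proteins that bind viral RNA and block its translation, and all 4 members were lower in every TLR4 line. IFIT1 lay at 8.30, 8.30 and 8.26 on the untransfected arrays, at 6.39, 6.33 and 6.13 in WT, at 7.01, 6.69 and 6.70 in D299G and at 6.17, 6.30 and 6.33 in T399I. No array of a TLR4 line came near the control level, and the D299G arrays were the highest of the 9. The fall was 4.01-fold in WT (log2 change -2.0 ± 0.10 SE, limma adjusted p = 2.08e-07), 2.8-fold in D299G (adjusted p = 1.61e-06) and 4.06-fold in T399I (adjusted p = 1.59e-07). IFIT1 was higher in D299G than in WT by 0.52 (adjusted p = 0.00371) and than in T399I by 0.53 (adjusted p = 0.00384).

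IFIT3, which binds IFIT1 and stabilises it, lay at 7.35, 7.71 and 7.43 in untransfected cells, at 6.26, 6.41 and 6.53 in WT, at 6.89, 6.87 and 7.03 in D299G and at 6.60, 6.76 and 6.85 in T399I. The groups ran in the order untransfected, D299G, T399I, WT. The neighbours D299G and T399I (0.19, adjusted p = 0.318) and T399I and WT (0.34, adjusted p = 0.0812) did not differ beyond the threshold. It fell 2.14-fold in WT (adjusted p = 3e-05), by 0.57 on the log2 scale in D299G (adjusted p = 0.00224) and by 0.76 in T399I (adjusted p = 0.000379). IFIT5 was at 7.13, 7.42 and 7.05 in untransfected cells and lowest in T399I, at 5.98, 5.71 and 5.57. Its WT arrays read 6.23, 6.37 and 6.49 and its D299G arrays 6.65, 6.49 and 6.31, so that T399I stood below both other lines with no overlap, and IFIT5 was the 1 gene of the set lower in T399I than in each other group (1.06% of all probe sets). The fall was 2.73-fold in T399I (adjusted p = 1.77e-05), and T399I was lower than D299G by 0.73 (adjusted p = 0.00375). The difference from WT (-0.61, adjusted p = 0.0146) was lost without WT replicate 3, T399I replicate 2 or T399I replicate 3 (adjusted p 0.0519 to 0.0644).

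IFIT2 was measured with a wider spread between arrays. Its untransfected arrays read 6.0, 5.78 and 5.27, its WT arrays 4.99, 4.85 and 4.72, its D299G arrays 5.01, 4.84 and 5.41, and its T399I arrays 4.36, 4.59 and 4.80. WT and T399I lay below the lower quartile of their arrays (5.2 to 5.29), so a fold there is a lower bound. It was at least 2.14-fold lower in T399I (adjusted p = 0.00153). D299G overlapped the controls, and its call (-0.60, adjusted p = 0.0353) was lost without D299G replicate 1 or 2 or untransfected replicate 1 or 2, with adjusted p up to 0.126 over the alternatives.

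EPSTI1, PARP9 and PARP14 were lower in the TLR4 lines by 1.86-fold to 3.17-fold. EPSTI1, an interferon-induced gene first described in epithelial-stromal interaction, lay at 7.90, 7.93 and 7.83 in untransfected cells, at 6.16, 6.36 and 6.14 in WT, at 6.26, 6.41 and 6.33 in D299G and at 5.96, 6.32 and 6.45 in T399I. The 3 lines overlapped one another and stood clear of the controls. The falls were 3.17-fold in WT, 2.93-fold in D299G and 3.12-fold in T399I (adjusted p = 2.22e-06, 3.32e-06 and 2.25e-06). PARP9, which acts with the ubiquitin ligase DTX3L, read 9.04, 9.14 and 8.88 in untransfected cells, 7.62, 7.75 and 7.42 in WT, 7.75, 7.93 and 7.79 in D299G and 7.33, 7.59 and 7.62 in T399I. It fell 2.68-fold, 2.29-fold and 2.84-fold in that order (adjusted p = 4.96e-06, 1.5e-05 and 3.26e-06). PARP14, a mono-ADP-ribosyltransferase, read 9.47, 9.65 and 9.43 in untransfected cells against 8.61, 8.72 and 8.26 in WT, 8.33, 8.32 and 8.48 in D299G and 8.55, 8.72 and 8.60 in T399I. It fell 1.98-fold, 2.2-fold and 1.86-fold (adjusted p = 9.1e-05, 2.7e-05 and 0.00017). Its D299G arrays lay below its T399I arrays with no overlap (-0.25, adjusted p = 0.213). None of these 3 genes was called in a comparison between lines in the main fit. PARP9, higher in D299G than in T399I by 0.31 with no overlap (adjusted p = 0.0973), was called with gene means (adjusted p = 0.0493).

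IFIH1 codes for MDA5, a sensor of long double-stranded RNA. Its untransfected arrays read 7.70, 8.12 and 7.64, its WT arrays 7.44, 7.26 and 7.24, its D299G arrays 7.16, 6.95 and 7.03, and its T399I arrays 7.03, 6.93 and 6.83. No array of a TLR4 line reached the lowest control array, and the changes were -0.51 in WT, -0.77 in D299G and -0.89 in T399I (adjusted p = 0.00917, 0.00061 and 0.000273). TRIM22, an antiviral ubiquitin ligase, was called lower in all 3 lines but lay below the lower quartile on all 12 arrays, at 4.57 ± 0.24 in untransfected cells and 4.03 to 4.10 as line means. Its calls in D299G (without D299G replicate 1, adjusted p = 0.0506) and in T399I (with only the compared arrays fitted, adjusted p = 0.0505) were not kept throughout.

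BST2, HERC5 and OAS1 went the other way. BST2 codes for tetherin, which holds budding virions at the cell surface and rose in every line. Its untransfected arrays read 8.06, 8.37 and 8.10, its WT arrays 9.71, 9.80 and 9.86, its D299G arrays 10.18, 10.04 and 10.10, and its T399I arrays 9.66, 9.73 and 9.68. All 9 arrays of TLR4 lines were above the highest control array, and D299G was above the other lines with no overlap. The rise was 3.06-fold in WT (log2 change 1.61 ± 0.09 SE, adjusted p = 3.54e-07), 3.81-fold in D299G (adjusted p = 1.19e-07) and 2.85-fold in T399I (adjusted p = 4.7e-07). D299G exceeded T399I by 0.42 (adjusted p = 0.00737). It exceeded WT by 0.32 (adjusted p = 0.0264), which was lost without WT replicate 1 or 2, and without D299G replicate 1 or 3 (adjusted p 0.0699 to 0.104).

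HERC5, the ligase that attaches ISG15 to proteins, read 5.20, 5.04 and 4.71 in untransfected cells, 5.66, 5.53 and 5.22 in WT, 6.62, 6.65 and 6.39 in D299G and 5.97, 6.49 and 6.03 in T399I. The control arrays lay below their lower quartiles, so folds against them are lower bounds. HERC5 was at least 2.97-fold higher in D299G (adjusted p = 4.52e-05) and at least 2.27-fold higher in T399I (adjusted p = 0.000378). In WT the rise was 0.49 (adjusted p = 0.0494), a call lost in 10 of 18 alternatives, among them the fits without WT replicate 1 or 2, any 1 of the D299G arrays, T399I replicate 3 or untransfected replicate 2 or 3 (adjusted p 0.0564 to 0.159). OAS1, a double-stranded RNA sensor that activates RNase L through oligoadenylates, read 8.66, 8.62 and 8.70 in untransfected cells, 9.01, 9.05 and 8.98 in WT, 9.37, 9.50 and 9.31 in D299G and 8.96, 8.87 and 8.91 in T399I. The 4 groups did not overlap, and the rises were 0.35, 0.73 and 0.25 (adjusted p = 0.00191, 1.08e-05 and 0.0125). With only the compared arrays fitted, the T399I call was lost (adjusted p = 0.0585).

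**Figure D3:**
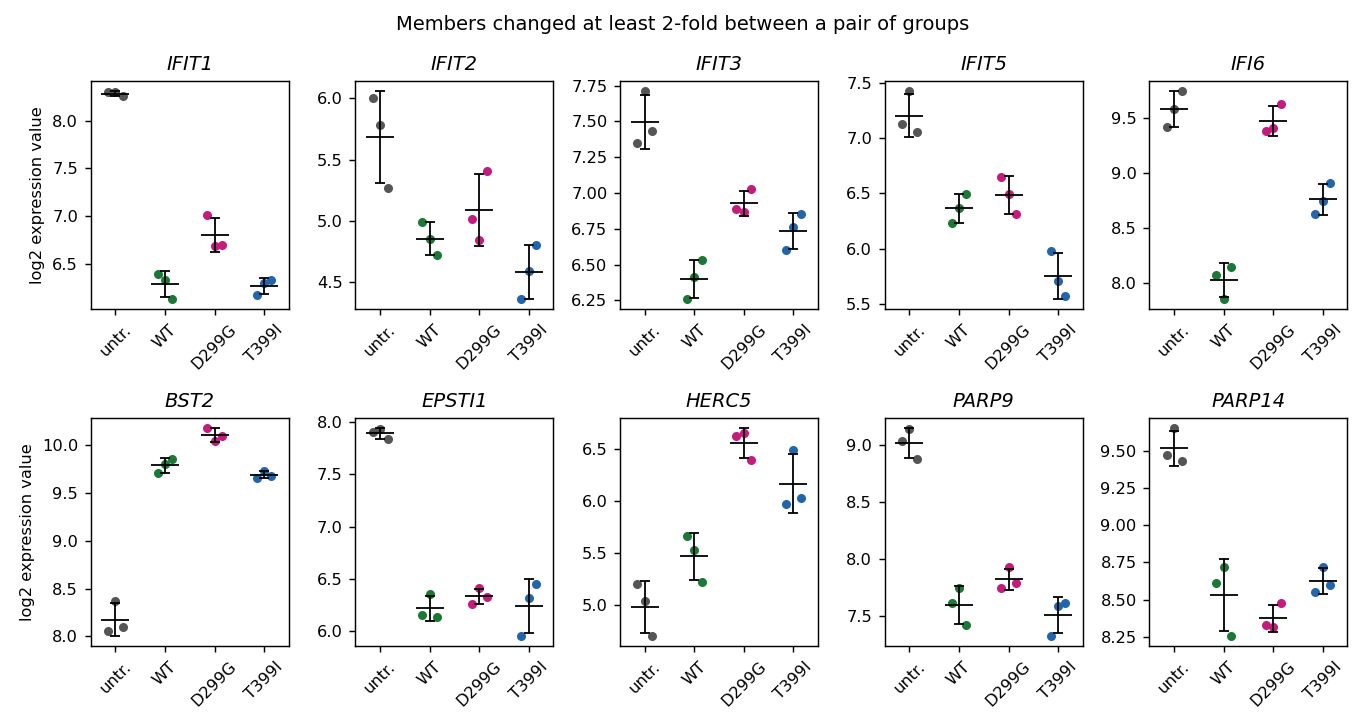
Points are the log2 values of single arrays, with the mean and SD of 3 arrays in black, for the 10 genes that changed 2-fold or more between a pair of groups. IFIT1, EPSTI1 and PARP9 are high in untransfected cells only, BST2 and HERC5 are lowest there, and IFI6 is lowest in TLR4-WT, at 7.86 to 8.15.

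Between the lines, the D299G line had 11 genes higher than the WT line and 0 lower, beside 7.85% and 9.02% of all probe sets. The median change was 0.15 over the 35 genes and -0.02 over all probe sets, 27 genes had a positive and 8 a negative difference, and 16 did not overlap between the groups (34.4%). The 11 genes were IFI6, HERC5, MX1, HERC6, SAMD9, USP18, IFIT3, IFIT1, IRF9, OAS1 and BST2, of which IFI6 and HERC5 reached 2-fold (0.907% of all probe sets). Of these calls 10 held under every alternative, BST2 being the exception. Against T399I the D299G line had 8 genes higher and 0 lower, beside 5.81% and 7.64%, with a median change of 0.18 against 0. They were IFI6, IFIT5, MX1, IFIT1, SAMD9, OAS1, BST2 and IRF9, and 17 genes did not overlap between these groups (29.9%). The calls of MX1 (without D299G replicate 1 or T399I replicate 3) and SAMD9 (without D299G replicate 3 or T399I replicate 2 or 3) were lost, with adjusted p up to 0.0775. Both comparisons share the D299G arrays. The 0 lower calls are by limma; at an unadjusted p under 0.05 the count lower was 0 against WT and 1 against T399I (DDX60, -0.27).

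The T399I and WT lines differed in fewer of these genes. T399I had 5 higher (IFI6, HERC5, HERC6, IRF1 and DDX60) and 1 lower (IFIT5), beside 5.9% and 4.48% of all probe sets, with a median change of 0.01 against -0.02, and 14 did not overlap (26.6%). With arrays centred the counts were 6 and 1, and over all probe sets 6.17% and 2.74%. The count of 5 fell to 2 without WT replicate 2, WT replicate 3 or T399I replicate 2, and to 3 without T399I replicate 3. The lower count was 0 without WT replicate 3 or T399I replicate 2 or 3, and 2 without untransfected replicate 2 or 3. IFI6 and HERC6 were called throughout.

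IFI6 codes for a small protein of the endoplasmic reticulum and mitochondria that limits apoptosis and flavivirus replication. It read 9.42, 9.58 and 9.74 in untransfected cells, 8.08, 7.86 and 8.15 in WT, 9.38, 9.41 and 9.63 in D299G and 8.63, 8.75 and 8.91 in T399I. D299G overlapped the controls (-0.11, 95% interval -0.36 to 0.15, adjusted p = 0.497), WT was lowest and T399I lay between. The fall was 2.93-fold in WT (adjusted p = 3.52e-06) and 1.76-fold in T399I (adjusted p = 0.000315). D299G exceeded WT 2.72-fold (adjusted p = 9.08e-06) and T399I by 0.71 (adjusted p = 0.00168), and T399I exceeded WT by 0.73 (adjusted p = 0.00225).

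HERC6, a relative of HERC5, was also lowest in WT, at 5.95, 5.87 and 5.74 against 6.35, 6.65 and 6.32 in untransfected cells, 6.62, 6.53 and 6.66 in D299G and 6.63, 6.91 and 6.88 in T399I. WT was below every other array, while D299G overlapped the controls. The fall in WT was 0.59 (adjusted p = 0.00182), and WT lay below D299G by 0.75 (adjusted p = 0.00056) and below T399I by 0.95 (adjusted p = 0.000288). T399I minus untransfected was 0.37 (adjusted p = 0.0236) with overlap, and was lost without T399I replicate 2 or 3 or untransfected replicate 1 or 3 (adjusted p 0.0727 to 0.0886). IFI6 and HERC6 were the 2 genes of the set lower in WT than in each other group, as were 1.91% of all probe sets.

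MX1, OAS1 and BST2 were higher in D299G than in each other group, as were 1.97% of all probe sets. MX1, a dynamin-like GTPase that blocks influenza virus, read 5.55, 5.66 and 5.35 in untransfected cells, 5.49, 5.29 and 5.64 in WT, 6.63, 6.39 and 6.24 in D299G and 5.99, 5.92 and 5.75 in T399I. WT lay among the controls and all 3 D299G arrays lay above every other array. D299G was 1.87-fold above untransfected cells (adjusted p = 0.000265) and 1.93-fold above WT (adjusted p = 0.000361). T399I minus untransfected was 0.37 (adjusted p = 0.0487), a call lost in 9 of 18 alternatives, among them the fits without WT replicate 1, D299G replicate 2, T399I replicate 1 or 2 or untransfected replicate 1 or 3 (adjusted p 0.0577 to 0.146).

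**Figure D4:**
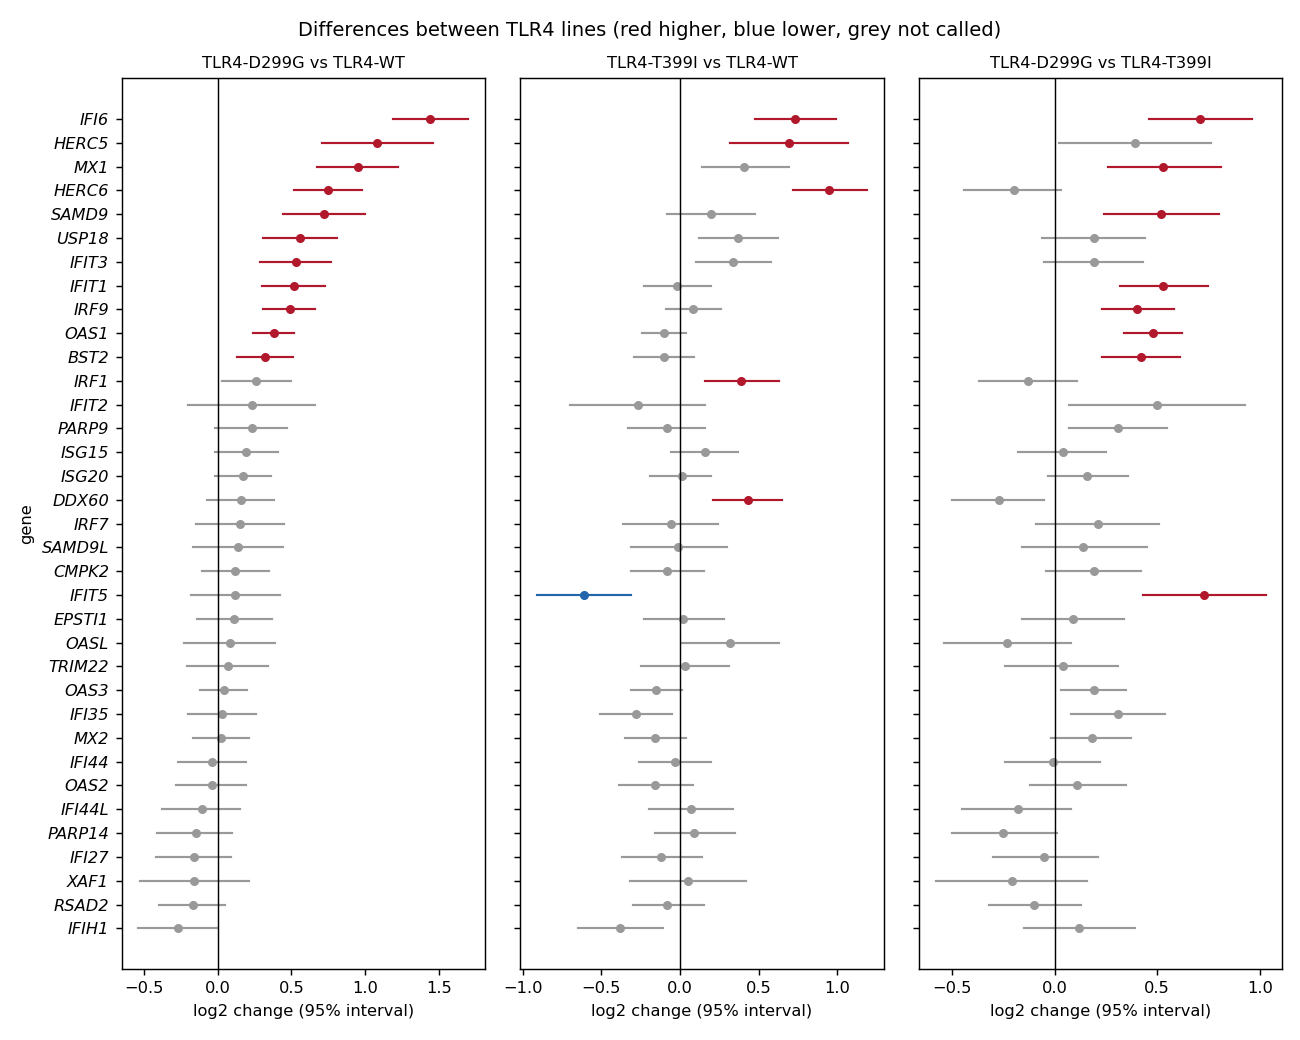
Log2 differences between the TLR4 lines with unadjusted 95% intervals of the limma fit are plotted for the genes of the set, in red or blue where called higher or lower at an adjusted p under 0.05. In the comparison of TLR4-D299G with TLR4-WT the 11 called genes all lie above 0, from BST2 at 0.32 to IFI6 at 1.44.

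Of the regulators of the response, IRF9, the DNA-binding part of ISGF3, was 7.57 ± 0.08 (SD, n = 3) in untransfected cells and 7.53 ± 0.09 in D299G, but 7.05 ± 0.07 in WT and 7.13 ± 0.11 in T399I. It fell by 0.52 in WT (adjusted p = 0.000649) and by 0.44 in T399I (adjusted p = 0.00187), and D299G exceeded WT by 0.49 (adjusted p = 0.00149) and T399I by 0.40 (adjusted p = 0.006). USP18, which removes ISG15 from proteins and damps signalling at IFNAR2, was 7.64 ± 0.15 in untransfected cells, 6.94 ± 0.14 in WT, 7.50 ± 0.12 in D299G and 7.31 ± 0.17 in T399I. It fell by 0.70 in WT (adjusted p = 0.000909), and D299G exceeded WT by 0.56 (adjusted p = 0.00534). A further probe set that names USP18 together with USP41P was not used. The transcription factor IRF1 fell by 0.42 in WT (adjusted p = 0.0117), and IRF7, which amplifies interferon alpha production, was higher in D299G by 0.42 (adjusted p = 0.033). That IRF7 call was lost without any 1 of the D299G arrays or untransfected replicate 1 or 2 (adjusted p up to 0.117). IRF1 in T399I against WT (0.39, adjusted p = 0.0395) was lost in 8 of 18 alternatives, among them the fits that left out replicate 2 or 3 of WT or of T399I, or replicate 1 or 3 of D299G (adjusted p up to 0.145).

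Of the other OAS genes, OAS3 was 0.21 higher in WT (adjusted p = 0.0482) and 0.25 higher in D299G (adjusted p = 0.0195). The WT call was lost in 12 of 18 alternatives, including those without any 1 of the untransfected arrays, WT replicate 1 or 3, D299G replicate 3 or T399I replicate 2 or 3, and the D299G call without D299G replicate 1 or 3 or untransfected replicate 1. OAS2 and OASL were called in no comparison. CMPK2, a mitochondrial nucleotide kinase, was 0.34 higher in WT (adjusted p = 0.029, lost without any 1 of the WT arrays or untransfected replicate 1 or 2) and 0.46 higher in D299G (adjusted p = 0.00602). IFI27 was 0.41 higher in WT (adjusted p = 0.021), which was lost without WT replicate 2 or 3 or untransfected replicate 1 or 2. SAMD9 and DDX60 were called in some comparisons but lay below the lower quartile of all 12 arrays, with line and control means of 4.10 to 4.82 and 3.61 to 4.04.

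The 11 genes called in none of the 6 comparisons were IFI35, IFI44, IFI44L, ISG15, ISG20, MX2, OAS2, OASL, RSAD2, SAMD9L and XAF1. Their 4 group means spanned only 0.16 to 0.32 on the log2 scale. IFI44, IFI44L, RSAD2 and SAMD9L were below the lower quartile on every array. ISG15, the ubiquitin-like modifier, was measured well above it, at 7.12 to 7.60 on all arrays. Its difference from untransfected cells was 0.01 in WT (95% interval -0.20 to 0.23), 0.21 in D299G (-0.01 to 0.42) and 0.17 in T399I (-0.04 to 0.38). Over the 11 genes, the end of an unadjusted 95% interval farthest from 0 in any comparison was 0.63, for OASL. For IFI44, IFI44L, RSAD2 and SAMD9L the signal is a bound, so their intervals cannot exclude a 2-fold change in RNA. OAS2 was below the lower quartile on 2 arrays and MX2 lay close to it, at 5.28 to 5.62. Their signals may be bounds too, so their intervals may not exclude a 2-fold change in RNA. For IFI35, ISG15, ISG20, OASL and XAF1 a 2-fold change lay outside the intervals, as far as the spread of these samples goes.

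Upstream of the set, both receptor genes and JAK1 were lower in the TLR4 lines, while TYK2 was called in no comparison. IFNAR1 went from 9.79 ± 0.08 (SD, n = 3) in untransfected cells to 9.39 ± 0.09 in WT, 9.46 ± 0.05 in D299G and 9.49 ± 0.13 in T399I (adjusted p = 0.00394, 0.01 and 0.0196). IFNAR2 went from 8.65 ± 0.08 to 7.76 ± 0.16, 8.04 ± 0.07 and 7.89 ± 0.22 (adjusted p = 0.000166, 0.00183 and 0.000492). JAK1 fell by 0.65, 0.39 and 0.49 and JAK2, a kinase of other cytokine receptors, by 0.62, 0.50 and 0.65 in the same order, all called. The JAK2 means in the lines, 5.09, 5.22 and 5.07, lay near the lower quartile of the arrays, so its falls may be lower bounds. Among 14 interferon ligand and receptor genes 2 were higher and 3 lower in WT, 3 and 4 in D299G, and 1 and 3 in T399I. IFNB1, interferon beta, had group means of 4.09 to 4.53, below the lower quartile, and was called higher in WT (0.27, adjusted p = 0.0396) and T399I (0.43, adjusted p = 0.00368). IFNL2, an interferon lambda, was 6.42 ± 0.21 in untransfected cells, 6.92 ± 0.17 in WT and 7.23 ± 0.17 in D299G, higher by 0.50 (adjusted p = 0.0345) and 0.81 (adjusted p = 0.00256). IFNL3 was 0.44 higher in D299G (adjusted p = 0.0297), and RNA of these near-identical genes may bind the probes of both. Of 16 measured genes of JAK-STAT signalling and its inhibitors 3 were higher and 5 lower in WT, 5 and 5 in D299G, and 4 and 4 in T399I. SOCS2, an inhibitor of cytokine signalling, had the largest change of that list in D299G and in T399I. It was at 6.82 ± 0.02 in untransfected cells and 6.85 ± 0.02 in WT but 8.80 ± 0.16 in D299G and 8.34 ± 0.18 in T399I (adjusted p against untransfected cells 0.82, 2.22e-07 and 1.29e-06).

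Of 20 measured genes for nucleic acid sensing and interferon induction, TLR4 included, 3 were higher and 2 lower in WT, 6 and 3 in D299G, and 5 and 3 in T399I. RIGI, the sensor RIG-I, fell in each line as its relative IFIH1 did, by 1.00 in WT (adjusted p = 3.11e-06), 0.58 in D299G (adjusted p = 0.000119) and 0.52 in T399I (adjusted p = 0.000308). A list of genes of interferon gamma type and class I presentation had 15 measured. Of these, 3 were higher and 3 lower in WT, 3 and 1 in D299G, and 3 and 1 in T399I. Among 43 measured further interferon-inducible genes 9 were higher and 12 lower in WT, 15 and 8 in D299G, and 7 and 11 in T399I. Over all probe sets the shares higher and lower were 16.1% and 15.1% in WT, 17.5% and 17.9% in D299G, and 14.6% and 14.8% in T399I. The counts of all these lists are to be read against them. With arrays centred, 5 of the 43 genes were higher in WT, as were 11.1% of all probe sets. D299G had 10 of the 43 higher and 5 lower than WT, beside 7.85% and 9.02% of all probe sets. Against T399I it had 7 higher and 7 lower (5.81% and 7.64%), so the calls there went both ways. T399I had 7 higher and 6 lower than WT (5.9% and 4.48%). The UBE2L6 gene, which codes for the enzyme that conjugates ISG15, was 8.35 ± 0.19 in WT, 9.63 ± 0.12 in D299G and 8.91 ± 0.10 in untransfected cells, and D299G exceeded WT by 1.28 (adjusted p = 1.63e-05). LGALS3BP, a secreted galectin-binding protein, was 9.59 ± 0.17 in untransfected cells, 8.43 ± 0.06 in WT, 10.07 ± 0.08 in D299G and 9.79 ± 0.13 in T399I. TRIM38, a ubiquitin ligase of innate signalling, fell by 1.50 in WT (adjusted p = 2.09e-05), and D299G exceeded WT by 1.45 (adjusted p = 4.41e-05). APOL6, an apolipoprotein L gene, was lower in all 3 lines (-0.70, -1.21 and -1.25 in WT, D299G and T399I). The nuclear body gene SP100 was 1.17 higher in D299G than in untransfected cells (adjusted p = 2.72e-05), and its relative SP110 was 1.07 higher in D299G than in T399I (adjusted p = 0.000507). IRF8, a factor known from myeloid cells, went against that order, at 9.27 ± 0.18 in untransfected cells, 10.81 ± 0.05 in WT, 9.79 ± 0.03 in D299G and 10.30 ± 0.07 in T399I.

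Of the 35 genes, 19 lie in 8 clusters of neighbours on the genome, and the measured genes beside them were read from the RefSeq gene order. In the IFIT cluster the flanking genes LIPA (-1.06, -0.62 and -0.91 in WT, D299G and T399I) and PANK1 (-0.67, -0.85 and -0.65) were also called lower in all 3 lines. IFIT1B, which lies among the IFIT genes, and SLC16A12 were called in none of those comparisons. Beside PARP9 and PARP14, DTX3L fell by 0.64, 0.86 and 0.74, but it is itself on the list of further interferon-inducible genes. FAM162A, HSPBAP1 and SLC49A4 were lower in all 3 lines too. PARP15 and SEMA5B, in the same stretch, were not called. In the HERC cluster the neighbours went both ways: ABCG2 was higher by 1.28, 1.26 and 1.62, and HERC3 was lower (-1.25, -1.30 and -0.98).

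**Figure D5:**
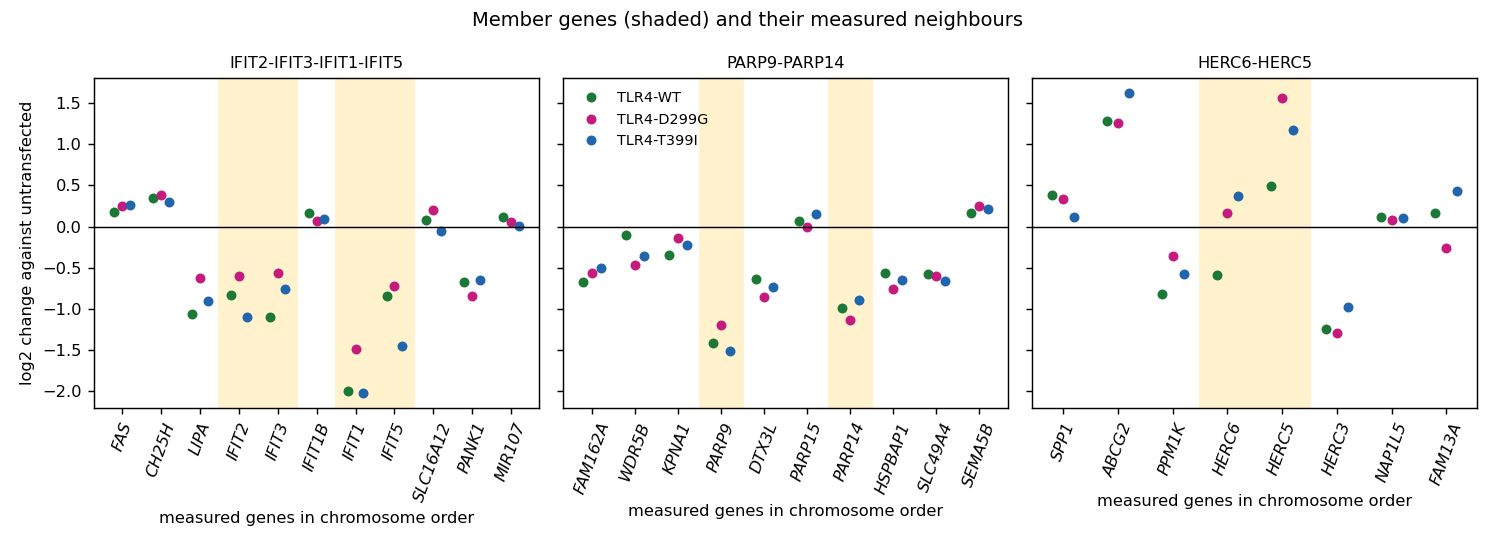
Genes are placed in RefSeq order along the horizontal axis, with no scale of distance, and the vertical axis is the log2 change against untransfected cells in each TLR4 line. The shaded IFIT and PARP members and several unshaded neighbours, such as LIPA beside the IFIT genes and DTX3L beside PARP9, lie below 0 in all 3 lines. DTX3L is itself on the list of further interferon-inducible genes.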

How the data were processed

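RNA of 12 samples was measured with 1 Affymetrix whole-transcript array each. The authors' software was Affymetrix Expression Console 1.0 with RMA, per the submitters' processing notes, and the deposited values are log2 expression values for 33297 probe sets, with no detection calls. RMA makes the arrays' distributions alike, so a shift shared by most genes would not be seen. The array's genome build is not given in the sources used here. Values were used as deposited, and groups came from the labels.

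Group means were estimated from all 12 arrays at once (8 residual degrees of freedom) with limma 3.58.1 in R 4.3.3 and empirical Bayes moderation. P-values were two-sided and given a Benjamini-Hochberg adjustment across the 33297 probe sets, with calls at 0.05. The code was tested on simulated data. A signal below an array's lower quartile was treated as a bound. All 35 genes were named, with every array's value for those that changed 2-fold or more in a pairwise comparison and, chosen after their values were seen, for IFIH1, MX1, OAS1 and HERC6. From the pathway lists, genes called with a 2-fold change (at most 4 per list and comparison), IFNAR1, IFNAR2 and TLR4 were named by rule, and JAK1, JAK2, TYK2, IFNB1, IFNL2, IFNL3 and the genes beside the clusters after their values were seen. The genes, lists, motifs and rules were chosen with earlier results of these data known.

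Alternatives were centred arrays, a filter on low probe sets, a trended robust prior, gene means, only the arrays compared, a replicate block, and each array left out.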

Additional observations from a re-analysis of the deposited data

Results flagged for a closer look

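HERC6 stood out because the TLR4-WT and TLR4-T399I lines were called in opposite directions against the same untransfected arrays. It was lower in TLR4-WT than in untransfected cells and higher in TLR4-T399I, and the direct test of the difference gave 0.95 on the log2 scale (T399I minus WT, limma adjusted p = 0.000288). The WT arrays lay below all others, while 1 of the 3 T399I arrays lay below the highest control array, at 6.63 against 6.65. The T399I rise (0.37, limma adjusted p = 0.0236) was lost in 5 of 18 alternatives (adjusted p 0.0727 to 0.0886). The WT fall and the difference between the lines were kept in all of them.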

How the results depend on the processing

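Each of the 28 changes of 2-fold or more (counting the mean of the 3 lines against untransfected cells as a further comparison) was called in all 503 alternative fits that tested it, and 60 of 81 pairwise calls were kept throughout. Counts that moved by over 1.5 times were, in TLR4-WT against untransfected cells 3 with arrays centred, in T399I against untransfected cells 2 with only the compared arrays, and in T399I against WT 8 higher and 2 lower with gene means and 3 higher with only the compared arrays. Leaving out each array gave 2 to 6 higher in WT against untransfected cells, and 2 to 6 higher and 0 to 2 lower in T399I against WT. The number of arrays limits calls of small changes, and 7 genes lay below the lower quartile throughout.

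With the replicate number as a block, 5 genes were higher and 15 lower in WT, 7 and 8 in D299G and 8 and 12 in T399I against untransfected cells. The D299G line had 11 higher than WT under the block. Shares of all probe sets under the block, with gene means, with only the compared arrays or with an array left out are not given here. These counts thus show how calls moved and are not a result about the set. The main fit did not use the numbers to pair the samples. Yet same-numbered arrays of different groups deviated together (correlation above 0.1) in 5 of 18 pairs, against 2 of 36 pairs of different numbers. Of 12 arrays, 8 correlated best with their own number. Some effect shared by number may thus be present, and its source was not tested.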
